A study of Mus musculus with 80 samples.

Results

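Uterine fibroblasts from Pdgfra-Cre Kdm6b f/f mice, in which the Cre is meant to delete Kdm6b, were set against Kdm6b f/f fibroblasts without Cre. Both were taken from implantation sites (IS) on GD14.5 (GD, gestation day). The comparison rests on 6 of the 80 samples of the series, chosen by their labels: 3 of genotype Pdgfra-cre Kdm6b f/f, called cKO here, and 3 labelled Kdm6b f/f control. All dams in both groups had been mated to a B6 male (labelled xB6 male) and all carried floxed Kdm6b. By label the groups differ in the Cre transgene and in the deletion it is meant to make, which was not measured here. They also come from different samples, and the reads behind each list are unknown. The fibroblasts came from a digest of myometrium and endometrium together and were isolated on magnetic beads, whose target the labels do not name. Pdgfra-Cre acts in mesenchymal cells that express the PDGF receptor alpha, and such cells are not limited to the uterus. H3K27me3 was mapped by CUT&RUN, which releases DNA at antibody-bound chromatin for sequencing, and the 3 samples of a group were pooled by the authors into 1 list of broad peaks. With 1 list per side there is no spread between replicates, and the 2 lists were compared without a test.

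Kdm6b encodes JMJD3, an enzyme that removes methyl groups from lysine 27 of histone H3. Polycomb repressive complex 2 places that mark, and genes under broad domains of it are mostly silent. In female cells the inactive X chromosome also carries the mark. Uterine fibroblasts support the decidua and the muscle layer during pregnancy, and late gestation brings up genes for contraction, prostaglandin signalling and chemokines.

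Coverage here means the percent of a gene or bin inside peaks, and differences are cKO minus control in percentage points. Genes were measured over their mm10 span with 2 kb on either side (21631 protein-coding genes), and the genome was also cut into 263115 bins of 10 kb. Gained means higher in cKO by 50 points or more and lost means lower by as much, which is a size rule and not a test. A yardstick for how far like lists differ came from the other Kdm6b f/f list of GD14.5 IS, the control of the Pgr-Cre experiment, called the second control. For the spread between pairs, 5 Pgr-Cre cKO and control pairs were used, taken at GD18.5 IS, GD14.5 IS and, in the tissue between sites (IIS), at GD14.5, GD8.5 and GD5.5. They share no sample with the Pdgfra-Cre pair, but differ from it in Cre driver and mostly in day or site.

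Promoters show the kind of difference that the lists hold, and 4 of them are printed because the 250 bases before the start site lay wholly inside a peak in 1 list of the pair and at 0 in the other. Of 17274 genes with a promoter entry in RefSeq (GRCm38.p6), 573 had such a promoter only inside cKO peaks and 359 only inside control peaks, and among the genes named by rule these were 4 and 10. Bases run 5′ to 3′ on the gene's strand, with CpG dinucleotides in capitals. Cpa1, a pancreatic carboxypeptidase gene (chr6:30638968-30639217, plus strand), and Inhbb, the inhibin beta-B subunit gene (chr1:119422249-119422498, minus strand), were covered in cKO. Foxd3, a forkhead factor gene of the neural crest (chr4:99656049-99656298, plus strand), and Cylc1, an X-linked gene of the sperm head (chrX:111110168-111110417, plus strand), were covered in control.
Cpa1: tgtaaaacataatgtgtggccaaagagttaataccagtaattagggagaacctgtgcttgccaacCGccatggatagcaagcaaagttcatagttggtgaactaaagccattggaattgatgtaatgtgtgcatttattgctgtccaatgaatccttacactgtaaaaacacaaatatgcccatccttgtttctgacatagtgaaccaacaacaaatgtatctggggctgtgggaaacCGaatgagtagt
Inhbb: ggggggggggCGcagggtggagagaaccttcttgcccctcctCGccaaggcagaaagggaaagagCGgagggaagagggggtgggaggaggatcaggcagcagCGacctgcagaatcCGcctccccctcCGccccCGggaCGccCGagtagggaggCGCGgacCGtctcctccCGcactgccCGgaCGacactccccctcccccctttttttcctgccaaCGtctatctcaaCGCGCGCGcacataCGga
Foxd3: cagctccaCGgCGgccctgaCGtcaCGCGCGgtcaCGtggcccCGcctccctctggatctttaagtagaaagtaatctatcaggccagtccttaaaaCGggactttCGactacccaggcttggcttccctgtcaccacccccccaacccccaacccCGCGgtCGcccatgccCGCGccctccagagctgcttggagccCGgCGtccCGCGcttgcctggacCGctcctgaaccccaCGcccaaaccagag
Cylc1: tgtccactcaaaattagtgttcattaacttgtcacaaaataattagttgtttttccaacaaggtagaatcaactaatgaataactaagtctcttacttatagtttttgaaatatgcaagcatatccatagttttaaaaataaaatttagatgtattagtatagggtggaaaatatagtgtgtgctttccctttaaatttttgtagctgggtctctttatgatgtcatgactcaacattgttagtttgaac

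The Cpa1 promoter holds 2 CpGs, that of Cylc1 holds 0, and those of Inhbb and Foxd3 hold 21 each. CpG-poor promoters were the commoner kind among those that differed. The median was 4 CpGs per 250 bases for promoters covered only in cKO and also 4 for those covered only in control, against 7 for the 3832 promoters inside peaks in both lists and 13 for the 11284 at 0 in both. The second control against the own control gave 480 promoters covered only in the second control (median 2 CpGs) and 356 only in the own control, whose median of 7 equals that of promoters inside peaks in both lists of the pair. In the second control the Cpa1 and Inhbb promoters were at 0 and those of Foxd3 and Cylc1 were whole. At equal covered length, with each list reduced to its strongest peaks until it covered 487 Mb, Cpa1, Foxd3 and Cylc1 kept the difference and Inhbb was at 0 in both lists. At that length the Foxd3 and Cylc1 promoters were at 0 in the second control too, so their difference held only against the own control.

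Markers of the labelled cell type were checked first. Polycomb marking of a fibroblast identity gene would go against the label, and the 18 genes of that list averaged 3.96% coverage in cKO, 2.40% in control and 2.44% in the second control, with 12 at 0 in both lists of the pair. Col1a1, Col3a1 and Vim were among those at 0. Thy1 (13.8% in control, 40.6% in cKO) and Pdgfra were marked, and the 2 kb on either side of the Pdgfra start site were covered to 100% in control, 86.5% in the second control and 60.1% in cKO. Epithelial markers were the most covered of the marker lists, at 81.9% in cKO and 79.9% in control, and those of immune (56.0% and 52.5%), endothelial (51.9% and 46.4%) and trophoblast cells (40.5% and 38.6%) lay between. Smooth muscle genes, the least covered of the lists for other cells, averaged 27.7% in cKO and 21.1% in control, with 6 of 18 at 0 in both. Broadly active genes averaged 7.08% and 5.70%. In such bulk samples the share of cells that carry the mark at a gene and the amount of mark per cell cannot be told apart. A minor admixture of other cells was not tested. Kdm6b itself was at 0.932% in cKO, 4.11% in control and 5.31% in the second control, Pgr at 0 in both, and Pdgfra at 28.4% and 26%, so peak coverage does not report on the deletion.

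More of the autosomes and less of the X lay inside peaks in cKO. The cKO list held 268200 peaks over 732 Mb of the autosomes and X, the control list 221218 peaks over 609 Mb, the shortest of the 12 Kdm6b lists, and the second control 702 Mb. The pair shared 488 Mb, while 244 Mb were covered only in cKO and 121 Mb only in control. Of cKO peaks 60.6% touched a control peak. The 105726 that touched none were short, with a median width of 759 bp against 1774 bp for the others, and none of them reached a -log10 q of 2. All 19 autosomes were higher in cKO, by log2 ratios of covered length from 0.27 to 0.48, highest on chromosome 18. Together the autosomes gave a log2 ratio of 0.34. The X went from 89.1 Mb in control to 73.9 Mb in cKO, a log2 ratio of -0.27.

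**Figure D1:**
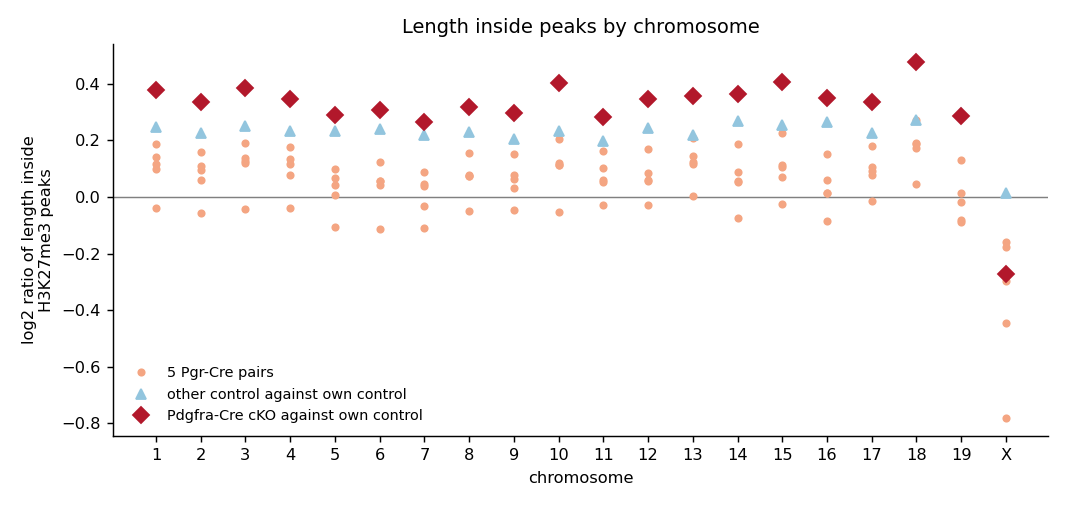
Log2 ratio of the length inside H3K27me3 peaks for each chromosome, 1 pooled list per side: Pdgfra-Cre cKO against its own control (diamonds), the second control against the own control (triangles) and the 5 Pgr-Cre pairs (circles). The Pdgfra-Cre pair lies at 0.27 to 0.48 on the autosomes and at -0.27 on the X, while the triangles lie at 0.20 to 0.30 on the autosomes and at 0.02 on the X.

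A large part of the autosomal difference had its like between controls. The second control exceeded the own control by a log2 ratio of 0.24 on the autosomes, and the cKO list exceeded the second control by 0.10. On the X the order was different, since both controls were near 90 Mb (89.1 and 90.1) and cKO lay 0.29 below the second control. In the 5 Pgr-Cre pairs the autosomal log2 ratio ran from -0.05 to 0.17 and that of the X from -0.78 to -0.16. The Pdgfra-Cre pair was the highest of the 6 on the autosomes (exact permutation test of 1 pair against 5, two-sided p = 0.167, the smallest that 6 pairs allow) and the third of 6 on the X (p = 0.833). With all lists at equal covered length the pair stood at 0.11 on the autosomes and -0.93 on the X. At that length the second control was itself at -0.34 on the X against the own control, and cKO at -0.59 against the second control.

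Strong peaks ran against the total. At a -log10 q of at least 2 the control list had 1811 peaks over 33.6 Mb, the most of the 12 lists, while the cKO list had 303 over 4.11 Mb and the second control 846 over 14.6 Mb. Nearly all of what stayed strong lay where control was strong too, since 96.0% of the strong cKO peaks touched a strong control peak and 16.2% of the strong control peaks touched a strong cKO peak. Peaks of at least 1.5-fold over background covered 82.2 Mb in cKO, 116 Mb in control and 88.6 Mb in the second control. Strong peaks overlapped 2021 genes in control (9.34% of all), 1017 in the second control (4.70%) and 329 in cKO (1.52%), of which 311 were strong in control as well. The 1710 genes with a strong peak in control and none in cKO had a median coverage of 46.9% in control and 53.5% in cKO. Folds and q values depend on the reads behind each list, which are unknown here, and their part in this difference was not tested.

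Bins show where the extra length lay. At 50 points 5940 bins were gained (2.26% of all) and 444 lost (0.169%), against 988 and 49 between the second and own control (0.376% and 0.0186%). Nearly all gained bins (5934) were autosomal, while 367 of the 444 lost bins (82.7%) were on the X, which holds 6.49% of bins. Between the controls 25 of the 49 lost bins (51.0%) were on the X, and against the second control 368 of 1240 (29.7%). Against the second control 3826 bins were gained and 1240 lost (1.45% and 0.471%), and 3130 were gained and 153 lost beyond both controls, a count chosen after seeing the data (1.19% and 0.0581%). The balance depends on how peaks are counted: gained bins were 93.0% of calls as deposited, 46.9% at equal covered length (4507 gained, 5107 lost, of which 2942 on the X, beside 1261 of 2325 lost between the controls) and 17.3% with peaks of at least 1.5-fold (915 gained, 4368 lost). Those 1.5-fold peaks gave 18.0% between the second and own control (821 and 3747).

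Gained bins had low coverage in control, which the rule in part fixes. A gained bin can have at most 50% in control and at least 50% in cKO, so only the second control is free of the rule. Their median coverage was 9.66% in control, 22.5% in the second control and 75.5% in cKO, 1682 of them had no control peak at all, and 3 held a strong cKO peak. Of autosomal bins over a protein-coding gene 1.32% were gained, of those within 50 kb of one 3.33%, of those at 50 to 200 kb 4.31%, and of those farther away 2.61%. Between the controls these shares were 0.316%, 0.540%, 0.526% and 0.314%. Over all autosomal bins the share was 2.41% in the pair and 0.390% between the controls. In the pair, bins over genes were thus gained less often than all autosomal bins, and those beyond 200 kb about as often. Chromosome 18 had the largest share of gained bins (3.86%) and chromosome 11, which is rich in genes, the smallest of the autosomes (1.69%).

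Bins were also grouped by their coverage in the own control. Since that value is subtracted, bins at 0 can only be higher and whole bins only lower, so the second control against the own control is given in the same classes. On the autosomes bins at 0 in control averaged 3.26% in cKO, bins above 0 and up to 25% were higher by 13.9 points, those at 25 to 50% by 12.7 and those at 50 to 75% by 7.32. Bins at 75 to under 100% came to 0.00402 points, and bins wholly covered in control differed by -2.39. The second control gave 1.35, 8.80, 11.1, 7.42, 1.44 and -1.82 in the same classes, so on the autosomes the pair stood above it only in the 3 least covered ones. On the X the pair was lower in every class above 0, from -2.84 in the least covered to -15.5 at 75 to under 100%. There the second control was higher by 7.42, 6.13 and 1.603 points in the classes up to 75% and differed by -4.59 and -6.61 above.

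**Figure D2:**
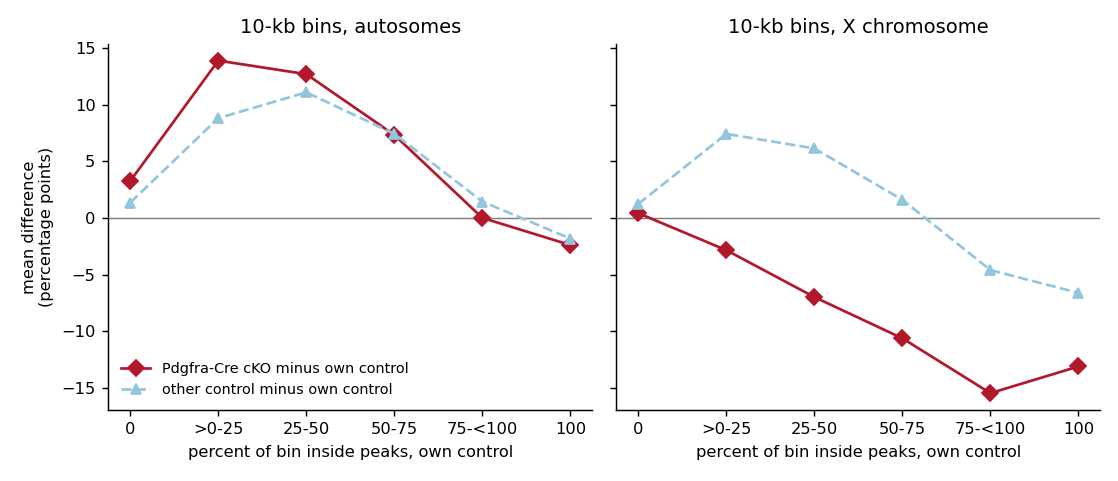
Mean difference in coverage of 10-kb bins, in percentage points, by the percent of the bin inside peaks in the own control, for autosomes (left) and X (right); diamonds are Pdgfra-Cre cKO minus own control and triangles the second control minus own control. Autosomal cKO values peak at 13.9 points in bins covered up to 25%, and all X values above the 0 class are negative for cKO.

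The bins gained in the Pdgfra-Cre pair were also higher in Pgr-Cre fibroblasts, which share no sample with it. Over the 5940 gained bins the median difference was 27.1 points in the Pgr-Cre pair of GD5.5 IIS, 32.4 at GD8.5 IIS, 34.6 at GD14.5 IIS, 42.2 at GD14.5 IS and 39.0 at GD18.5 IS. Between 88.2% and 94.7% of them were higher in each pair and 5.17% to 10.5% lower. Of all autosomal bins 25% to 32.8% were higher and 22.1% to 31.3% lower, and the others had equal coverage in both lists. Gained bins hold cKO peaks by the rule, so such ties are rarer among them, and the shares were not matched for coverage. The 367 lost X bins had medians from -15 (GD5.5 IIS) to -51.1 (GD14.5 IS), against -1.38 to -17.4 for all X bins. The 77 lost autosomal bins had medians from -18.3 to -28.3.

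Adjacent gained bins formed 4355 runs, 48 of them of 5 bins or more, and the lost bins 396 runs of at most 3 bins. The longest gained run spanned 100 kb on chromosome 18 (55210001 to 55310000), 217 kb from Zfp608, a zinc finger gene, and went from 8.87% in control and 18.3% in the second control to 81.7% in cKO. The next spanned 80 kb on chromosome 2 (117600001 to 117680000), 257 kb from Rasgrp1, a Ras activator, with 11.7%, 30.1% and 75.6%. A run of 70 kb inside Lrmda, a melanocyte differentiation gene (chromosome 14, 22840001 to 22910000), had 2.287%, 0.694% and 75.7%, and another of 70 kb lay 138 kb from Arl4c, a small GTPase gene (chromosome 1, 88840001 to 88910000; 11.6%, 28.8% and 79.2%). A run of 60 kb on chromosome 8 (103420001 to 103480000), 622 kb from Cdh5, the gene of VE-cadherin, rests on a control value of 0 and 0.667% in the second control, with 74.4% in cKO. In these 5 runs the Pgr-Cre pairs were higher in 5 of 5, and of the 12 longest gained runs 11 held no protein-coding gene. The 6 longest lost runs, 30 kb each, were all on the X. They lay at Msn, the moesin gene, Phf8, itself a histone demethylase gene, Zxdb and Prrg1, and in gene-free stretches nearest to Gm44 and Actrt1. Control coverage there was 67.6% to 94.0% and cKO coverage 8.55% to 41.2%. Msn, an abundant gene of the cell cortex, had 82.1% in control, 65.8% in the second control and 25% in cKO over its run.

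At the level of whole genes the calls were few, 49 gained (0.227% of genes) and 31 lost (0.143%). Between the second and own control 65 genes were gained and 9 lost (0.3% and 0.0416%), so the count of gained genes is no larger than between 2 controls. Against the second control 22 were gained and 97 lost (0.102% and 0.448%), and at equal covered length 48 and 208. Beyond both controls 13 were gained and 16 lost (0.0601% and 0.074%). Of the 49 gained genes 0 were on the X, and of the 31 lost 17 were, where the X holds 966 of the 21631 genes. Gained and lost genes were short, with median windows of 6.74 kb and 6.45 kb against 21.3 kb for all genes. Olfactory, vomeronasal and taste receptor genes made up 8 of the gained (16.3%) and 12 of the lost (38.7%), beside 7.02% of all genes. The rule itself favours short windows, in which fewer bases make 50 points, and the receptor shares were not matched for length. The smallest gain inside the rule was 50.5 points and the largest outside 49.95, and the loss edges were -50.2 and -49.8. Promoter CpG content of changed genes was not compared, since 77.0% of the genes higher by 25 points had a promoter entry, under the 80% needed. Of all genes 79.9% had an entry, which is also just under 80%. The promoter counts and CpG medians given earlier therefore describe only genes with an entry.

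Named gains were the 7 genes past 50 points both as deposited and at equal covered length, out of 8 before predicted genes were set aside. Mrln, which encodes myoregulin, a micropeptide that restrains the muscle calcium pump (chromosome 10, 70204664 to 70219711), had 14.1% in control, 14.9% in the second control and 73.8% in cKO. Both controls were low and alike. Cpa1 (chromosome 6, 30639218 to 30645361) had 18.2%, 31.2% and 89.2%, the largest difference at 71.0 points, and Hcar1, the lactate receptor gene, had 8.97%, 26% and 63.7%. For Cryge, a lens crystallin gene, the values were 21.5%, 12.7% and 75.9%. Mrln, Cpa1 and Cryge thus passed 50 points against both controls. The remaining gains did not. Naa11, an N-terminal acetyltransferase gene (22.0%, 45.1% and 80.7%), Xcl1, the lymphotactin chemokine (26.5%, 61.9% and 77.0%), and Pabpc2, a poly(A)-binding protein gene (24.1%, 47.2% and 78.7%), had second-control values between the pair. In the Pgr-Cre pairs 6 of the 7 were higher in 5 of 5, Mrln by 49.8 ± 7.47 points (SD, n = 5 pairs) and Cpa1 by 61.7 ± 24.1. Cryge, the exception, ranged from -8.73 to 59.0 there.

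Of the 10 named losses 9 were X-linked. Brcc3, a deubiquitinase of the BRCA1 complex (X, 75416628 to 75455702), had 73.1% in control, 46.4% in the second control and 22.2% in cKO. Alas2, the erythroid gene for the first step of heme synthesis, had 73.5%, 54.8% and 23.1%, and Cylc1 had 72.9%, 76.2% and 20.8%. Mycs, an intronless Myc relative, had the lowest cKO value, 1.90%, with 71.8% in control and 77.4% in the second control. Actrt1 (90.5%, 86.6%, 34.5%) and Samt2b (94.7%, 75.2%, 38.1%), both testis genes, Hccs, the holocytochrome c synthase gene (89.3%, 69.4%, 39.0%), and Ube2dnl1 (82.6%, 81.1%, 22.0%) were lower than both controls. For Zbtb33, the gene of the methyl-CpG reader Kaiso, the second control (41.8%) lay near cKO (37%) and far from the own control (87.9%). The autosomal loss was Ccnb1ip1, a cyclin B1 interacting ligase gene on chromosome 14, with 100% in control, 60.2% in the second control and 29.6% in cKO. Cylc1, Mycs, Actrt1 and Ube2dnl1 were lower by at least 50 points against both controls. In the Pgr-Cre pairs 6 of the 10 were lower in 5 of 5, Samt2b by 54.7 ± 10.7 points (SD, n = 5), whereas Ccnb1ip1 ranged from -41.5 to 51.0.

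**Figure D3:**
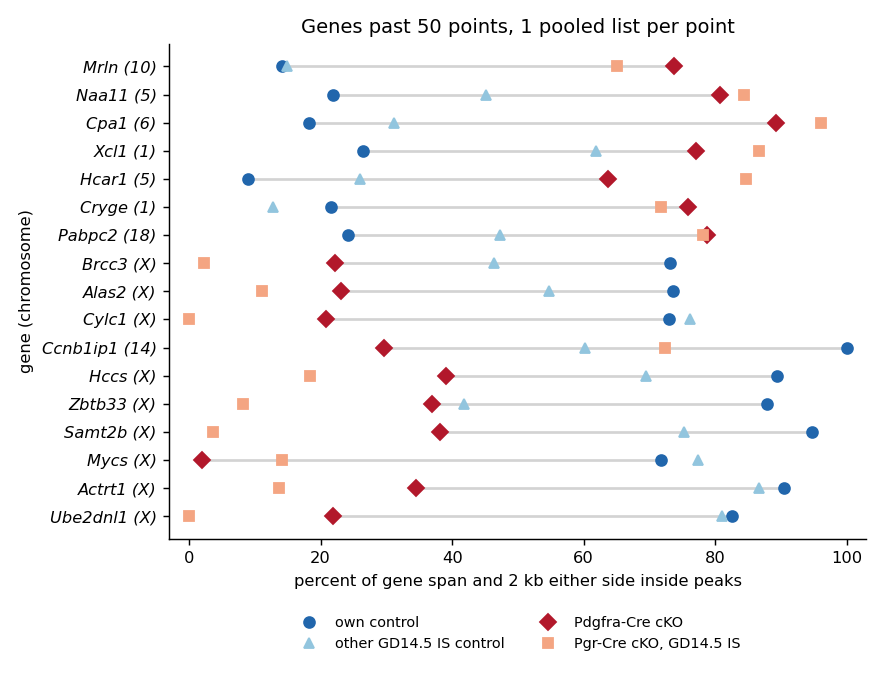
Percent of each named gene's window inside H3K27me3 peaks in 4 pooled lists: own control (circles), second control (triangles), Pdgfra-Cre cKO (diamonds) and Pgr-Cre cKO of GD14.5 IS (squares), with the chromosome in brackets. Mrln has both controls near 14% and cKO at 73.8%, while Xcl1, Zbtb33, Brcc3 and Ccnb1ip1 have a second control nearer to cKO than to the own control.

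Single genes were then set against the spread of the Pgr-Cre pairs with limma, in which the lone pair is assumed to vary like those 5. Of 10205 genes that averaged 5% coverage or more over the 12 lists, 0 passed an adjusted p of 0.05 in either direction (0% called), with 1385 at an unadjusted p under 0.05 (13.6%). The smallest adjusted p was 0.116. For the difference between the Pdgfra-Cre pair and the Pgr-Cre mean 0 genes passed as well, with 885 at an unadjusted p under 0.05 (8.67%). The genes with the smallest p, chosen after their values were seen, were Slc14a2 and Pla2g2e. Slc14a2, a urea transporter gene, was higher by 46.3 ± 3.02 points (limma SE) in the Pdgfra-Cre pair and by 35.7 to 43.9 in the 5 Pgr-Cre pairs (adjusted p = 0.116 in limma). Pla2g2e, a secreted phospholipase gene, was higher by 46.7 ± 3.18 and by 21.8 to 29.7 (adjusted p = 0.116). Of the named genes Mrln, Naa11, Hsd11b1, Kcnmb1 and Hoxb5 came to an adjusted p of 0.145 in limma, and Hoxb5 was lower in 5 of 5 Pgr-Cre pairs.

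Over the 5 Pgr-Cre pairs alone limma called 516 genes up and 608 down (5.06% and 5.96% of those tested). The Pdgfra-Cre pair entered that call only through the coverage filter, which averages all 12 lists. With no filter 456 and 482 were called. Values of the 516 and 608 genes in the Pdgfra-Cre pair are the comparison given here. Of the 516 genes that rose, 500 (96.9%) were higher in the Pdgfra-Cre pair too, by a median of 16.1 points, where 60.9% of all tested genes were higher and the median was 2.48. At 25 points or more 114 of them were higher and 1 lower. All 516 were autosomal. Leaving out 1 Pgr-Cre pair at a time left 96 to 269 genes called up and 93 to 382 down, fewest without GD8.5 IIS and most without GD5.5 IIS, and at equal covered length 129 and 154 were called. Of the 608 genes that fell, 435 (71.5%) were lower in the Pdgfra-Cre pair, by a median difference of -4.39, beside 30.5% of all tested genes. Their median over the Pgr-Cre pairs was -21.7. The 536 autosomal genes had a median of -3.54 in the Pdgfra-Cre pair and -20.7 over the Pgr-Cre pairs, and the 72 X-linked ones -21.9 and -22.9. The Pdgfra-Cre values depend on the control list. Against the second control, which is also the control of 1 of the 5 Pgr-Cre pairs and so is not independent of the call, the medians were -18.52 for the autosomal and -16.8 for the X-linked genes, and 11.9 for the genes that rose. At equal covered length the medians were 7.86 for the risen and -7.75 for the fallen genes.

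**Figure D4:**
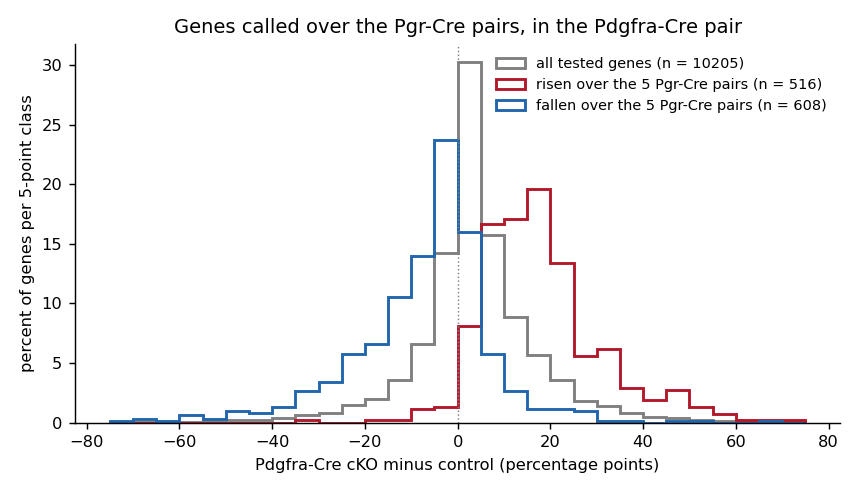
Percent of genes in each 5-point class of the difference Pdgfra-Cre cKO minus control, for all 10205 tested genes (grey), the 516 that rose over the 5 Pgr-Cre pairs (red) and the 608 that fell (blue). The red line is centred near 16.1 points and 96.9% of it lies above 0, while the blue line is centred at -4.39.

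Gene lists for the biology of the pregnant uterus held 567 measured genes in 21 lists, of which 128 were at 0 in both lists of the pair and 0 passed 50 points. At 25 points 21 were higher (3.704%) and 5 lower (0.882%), beside 2.56% and 1.27% of all genes, and against both controls 8 were higher and 1 lower, beside 1.08% and 0.795% of all genes. The mean was above control in 19 of the 21 lists, above the second control in 19, and above control in 10 at equal covered length. Member values follow by role, given as control, second control and cKO.

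A few contractile genes were higher in cKO. Of 18 smooth muscle genes 3 were higher by 25 points, 0 were lower and 6 were at 0 in both lists, with a median difference of 0.00731 beside 0 over all genes, and the list mean was 21.1%, 21.9% and 27.7%. Casq2, the calsequestrin that stores calcium, had 9.98%, 13.9% and 45.4%, Mylk, the myosin light-chain kinase, 13.9%, 20.7% and 42.6%, and Kcnmb1, the smooth muscle subunit of the BK channel, 17.2%, 36.4% and 51.8%. In Casq2 and Mylk both controls were low, and in Kcnmb1 the second control lay between. All 3 were higher in 5 of 5 Pgr-Cre pairs. Acta2, smooth muscle actin, was lower than the own control but not than the second (40.6%, 20.005% and 26.95%).

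Receptors and channels of contraction had the largest difference in list mean, 35.1%, 36.4% and 43.1% over 28 genes, with a median difference of 5.97. Ptgfr, the prostaglandin F receptor, had 18.9%, 23.5% and 39.0%, Chrm2, a muscarinic receptor, 23.8%, 29.6% and 44.998%, and Oxtr, the oxytocin receptor, 21.6%, 14.2% and 36.8%. The calcium-activated potassium channel genes Kcnma1 (2.51%, 5.24% and 19.1%) and Kcnn3 (4.99%, 3.59% and 19.9%) started near 0. For Ptgfr, Chrm2, Oxtr, Kcnma1 and Kcnn3 both controls lay below cKO, and the Pgr-Cre pairs were higher in 5 of 5. At equal covered length the list mean difference was 3.26, and Chrm2 (1.83) and Oxtr (3.06) kept little of theirs. Strong peaks lay over 5 genes of the list in control, Chrm2 among them, 1 in the second control and 0 in cKO.

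Prostaglandin genes followed in part. Slco2a1, the transporter that takes prostaglandins into cells, had 38.04%, 30.5% and 69.9% and was higher in 5 of 5 Pgr-Cre pairs (34.3 ± 9.31, SD, n = 5). Ptgds, the prostaglandin D synthase gene, had 0%, 37.5% and 31.2%, so its difference exists only against the own control. Ptgs2, the inducible cyclooxygenase, also had a second control as high as cKO (11.1%, 26.4% and 25.2%). The 16 genes had a median difference of 0, and 2 were past 25 points.

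In steroid metabolism Hsd11b1, which regenerates active glucocorticoid, had 6.01%, 18.98% and 40.8%. Its 5 Pgr-Cre pairs were close to one another at 36.4 ± 3.704 points (SD), and at equal covered length its difference in the Pdgfra-Cre pair was 8.57. Akr1c18, which inactivates progesterone, had 18.7%, 38.2% and 34.9%. Of 22 genes 1 was higher by 25 points and 0 lower, and the list mean was 30.9%, 35.5% and 34.04%, above the own control and below the second.

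Decidual genes differed both ways, with 1 of 26 higher by 25 points and 1 lower and list means of 20.9%, 19.2% and 21.1%. Inhbb, one of the activin and inhibin subunits, had 11.1%, 0% and 42.0%. Fst, the activin antagonist follistatin, had 64.5%, 27.7% and 23.1%, with the second control near cKO. The same was true of Hand2, a progesterone-responsive factor of the stroma (23.6%, 0% and 0.796%). Bmp2, which is needed for decidualization, was at 20.6%, 25.2% and 0%, lower than both controls, and Il11 at 69.3%, 77.3% and 88.8%.

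Signalling genes past 10 points were more often higher than lower, but so were all genes (2443 against 1014 of 21631). The counts were 6 against 0 of 35 in the Wnt list, 9 against 1 of 35 in the BMP list and 3 against 1 of 25 among growth factors. The median differences in these lists were 2.87, 0.220 and 1.30 points and 0 at equal covered length. In the Wnt list (35 genes, means 52.3%, 53.6% and 57.3%) Wnt7b had 50.8%, 71.4% and 78.7%, the antagonist Dkk2 17.2%, 24.3% and 40.04%, and the R-spondin receptor Lgr6 14.4%, 9.79% and 39.2%. Dkk2 and Lgr6 were higher in 5 of 5 Pgr-Cre pairs. The BMP, TGF-beta and hedgehog list (35 genes) had means of 46.2%, 45.9% and 49.9%, with Bmp6 at 47.7%, 50.5% and 63.2%. Among 25 growth factor genes Igfbp2, an IGF carrier, had 44.8%, 71.7% and 74.3%, Fgfr2 39.0%, 44.2% and 55.6%, and Hbegf 43.6%, 39.2% and 57.7%. Each of the 3 lists had 1 member higher by 25 points and 0 lower. Strong peaks went the other way, over 9, 5 and 1 genes of the Wnt list, 9, 5 and 1 of the BMP list and 2, 0 and 0 growth factor genes. They covered 24.1%, 52.2% and 0% of Wnt7b and 36.6%, 0% and 0% of Igfbp2.

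Matrix genes had low coverage, with 16 of 38 at 0 in both lists and means of 18.1%, 17.7% and 19.98%. Col8a1, a collagen of vessel walls, had 19.96%, 16.0% and 42.9% and was higher in 5 of 5 Pgr-Cre pairs by 35.1 ± 8.72 points (SD). The X-linked Timp1, a metalloproteinase inhibitor, had 65.8%, 62.1% and 32.5%, and Timp4 had 62.0%, 60.5% and 81.9%. At equal covered length the list mean turned to -1.22.

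Chemokine and cytokine genes had 6 of 42 members higher by 25 points and 0 lower, the most in number of any list though not as a share, with means of 47.6%, 49.9% and 54.9% and a median difference of 1.17. In the Ccl cluster of chromosome 11, Ccl8 had 17.8%, 13.2% and 54.7%, and Ccl12 had 0%, 0% and 32.2%. Its neighbour Ccl7 had 0%, 0% and 12.2%. Both controls were low or at 0 over these 3 genes, all of which encode attractants of monocytes. Ccl12 and Ccl7 were picked after their values were seen. Ccl4 had 49.7%, 63.7% and 81.3%, Ccl20 41.7%, 51.9% and 75.6%, Cxcl15 37.8%, 48.4% and 76.0%, and Ifng, the interferon gamma gene, 7.22%, 23.1% and 34.04%. The Pgr-Cre pairs varied, from -8.51 to 62.2 for Ccl8 and from -10.5 to 52.8 for Ccl12. At equal covered length the list mean difference was -1.09, Ccl8 came to 12.7 and Cxcl15 to -19.4, while Ccl20 kept 32.7. Strong peaks lay over 4 genes of the list in each control and 0 in cKO.

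Developmental transcription factor genes are classical Polycomb targets. The 89 genes of that list averaged 86.7% in control, 79.1% in the second control and 85.2% in cKO, and 30 were whole in both lists of the pair. Strong peaks lay over 26 of them in control, 2 in the second control and 1 in cKO. Barhl2 (100%, 43.04% and 57.5%) and Foxd3 (100%, 76.5% and 72.3%) were lower by 25 points, both with a second control near cKO. In the 4 Hox clusters (39 genes, 53.4%, 50.7% and 55.8%) Hoxb5 had 38.8%, 78.7% and 72.0% and Hoxc5 54.5%, 57.2% and 84.5%, whereas Hoxc8 had 92.6%, 78.9% and 74.2%. At equal covered length the means of both lists were lower in cKO (-5.94 and -6.42), and Hoxc5 turned to -48.3.

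Lists of chromatin, cell cycle, imprinting and cell identity complete the set. Among 22 genes of the H3K27 machinery none passed 25 points, with Cbx8, a Polycomb reader, at 65.5%, 57.7% and 82.0%, and the X-linked Rbbp7 at 66.1%, 62.8% and 52.9%. All 10 cell cycle inhibitors stayed within 10 points, but 7 were at 0 in both lists of the pair and 2 were whole in both. Cdkn1a and Cdkn1b were at 0 in the 3 lists. Of 27 imprinted genes Magel2 was higher by 39.3 points (45.4%, 50.9% and 84.6%) and its neighbour Ndn lower by 30.3 (51.3%, 41.9% and 20.95%), and at equal covered length Magel2 turned to -18.6. The genes of fibroblast identity had 1 member past 25 points, Thy1, a fibroblast and T-cell surface glycoprotein (13.8%, 21.4% and 40.6%). Among immune markers it was Itgax, which encodes CD11c (31.5%, 45.5% and 56.9%). The endothelial, epithelial and trophoblast lists had 0 such members each, with median differences of 6.67, 0 and 0.

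**Figure D5:**
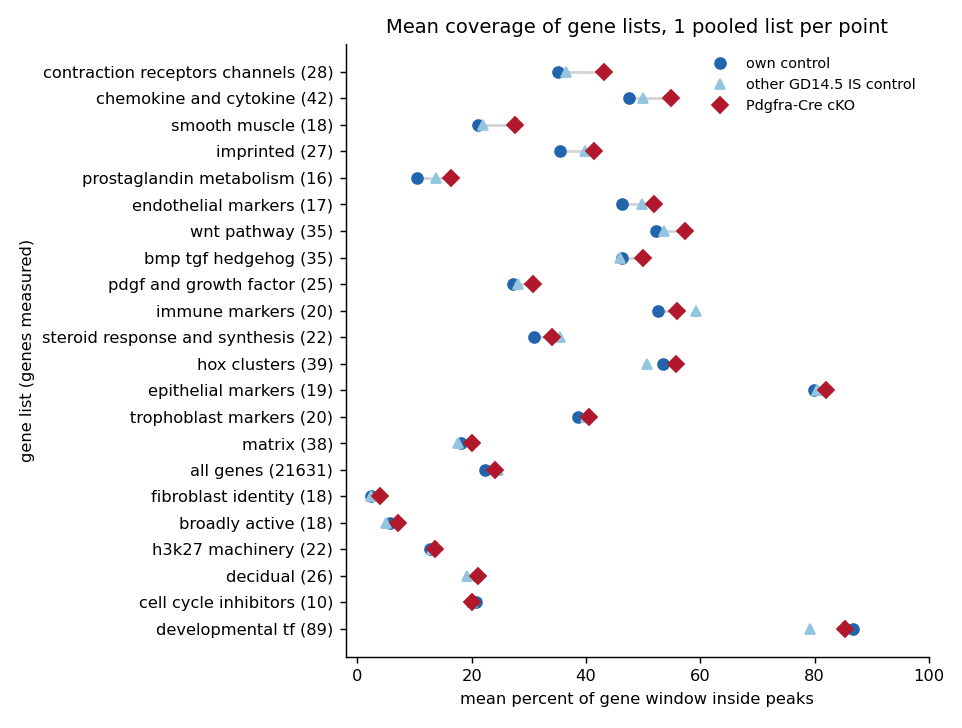
Mean percent of gene windows inside H3K27me3 peaks for the 21 lists and all genes, with the number of measured genes in brackets: own control (circles), second control (triangles) and Pdgfra-Cre cKO (diamonds), ordered by cKO minus control. Contraction receptors and channels (35.1%, 36.4% and 43.1%) have both controls below cKO, and developmental transcription factors have cKO (85.2%) between the controls.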

How the data were processed

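Broad peaks were called by the authors with macs2 2.2.7.1 after alignment to mm10 with STAR 2.7.5c, per the submitters' processing notes, on the 3 pooled samples of a group, per the labels. Each deposited list gives a peak's position, its fold over background (a ratio), and -log10 p and -log10 q, all the authors' own values. The reads behind each list are unknown, and the only measure of precision is how far lists and pairs differ, which does not cover single animals. The smallest -log10 p was 0.349 (cKO) and 0.340 (control), so the lists are lenient. Fold and q served only to filter peaks within a list. Pairs are treated as independent, which the labels do not state.

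Overlapping peaks were merged, and coverage was computed over RefSeq GRCm38.p6 protein-coding genes, without the Y, and over 10-kb bins (python 3.11.15, numpy 2.4.6, pandas 2.3.3). Start sites come from the first promoter entry per gene. Lists were also compared at equal covered length, keeping the peaks of smallest p until 80% of the length of the shortest list was reached. limma 3.58.1 (R 4.3.3) was fitted to the 6 paired differences, with Benjamini-Hochberg adjustment. It had 1 coefficient for the Pdgfra-Cre pair and 1 for the Pgr-Cre mean. On simulated data with independent noise the fit recovered 22% of 20-point shifts in the lone pair and 52% of 40-point shifts. For shifts of 60 and 80 points it recovered 74% and 86%, so real differences can go uncalled. Named genes were the 10 largest gains and losses in covered bases that passed 50 points as deposited and at equal covered length (7 gains qualified), the 3 members of each list that differed most, Kdm6b, Pdgfra, Pgr, and the 5 longest runs each way. Some list members are not reported here. Other members named with their values were chosen after those values were seen. The members, lists and rules were chosen with earlier results of these data known.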

Additional observations from a re-analysis of the deposited data

Results flagged for a closer look

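Peaks on the Y chromosome took part in no comparison. They covered 0.0276 Mb in the Pdgfra-Cre cKO list, 0.0268 Mb in its control and 0.0242 Mb in the second control, so the cKO value was above both. Over all 12 lists the range was 0.0205 to 0.0279 Mb. The dams are female, and where these peaks come from was not tested.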

How the results depend on the processing

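Gained genes numbered 49 as deposited, and 0 with peaks limited to a -log10 q of 2 or more, 17 with 5 kb flanks, 181 over the span alone, 230 in a 2-kb window around the start site, 553 at 25 points, 2 at 75, 22 against the second control and 13 beyond both controls. Lost genes numbered 31, and in the same order 524, 7, 126, 84, 274, 1, 97 and 16, with 208 at equal covered length, 331 with 1.5-fold peaks and 14 on the autosomes. Gained bins (5940) came to 8 at -log10 q of 2, 915 at 1.5-fold, 25536 at 25 points, 792 at 75, 3826 against the second control, 288 in 50-kb bins and 3130 beyond both controls. Lost bins (444) came to 2901, 4368, 5322, 9, 1240, 3 and 153, with 5107 at equal covered length and 77 on the autosomes. Counting beyond both controls was chosen after seeing the data. Gained calls were 61.3% of gene calls, 18.8% at equal covered length, 10.8% with 1.5-fold peaks and 18.49% against the second control. The log2 ratio of the X moved from -0.27 to -0.93 at equal covered length. With at least 50% of the peak's length overlapping, 43.8% of cKO peaks matched a control peak.

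Of the 17 named genes past 50 points 7 kept that size against the second control, 3 with 5 kb flanks and 0 with peaks at -log10 q of 2 or at 1.5-fold, where 16 were at 0 and Mrln reversed to -0.409 in both. limma called 0 genes under each alternative except with no filter, where P2ry13 passed in both tests (1 up, higher by 31.3 points in the Pdgfra-Cre pair and 0 in the 5 others). Leaving out each Pgr-Cre pair in turn gave 0 up and 0 down. Subtracting the median difference, which is 0, changed no call. No paired analysis was possible because each group enters as 1 pooled list and the groups share no replicate numbers. Without read depths, weak peaks cannot be told from background by counting error.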
